A study of Homo sapiens with 8 samples.

Results

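The mRNAs of 187 zinc finger genes named ZNF followed by a number were followed in SLAM-Seq libraries of U-2OS Tet-ON cells, a human osteosarcoma line that expresses the tetracycline-regulated transactivator Tet-ON. They were chosen by symbol, with ZNF395 and ZNF654 left out, and by a limit of 100 reads or more in 3 or more of the 6 main libraries. This kept 187 of 443 such symbols, among 10138 genes that met the same limit of 18388 listed, so the read counts chose the members. Of the 256 symbols below the limit, 6 had no read in these libraries. The siControl group (3 libraries) received 50 nM non-targeting control siRNA and the siCGGBP1 group (3 libraries) 50 nM of a pool of CGGBP1 siRNAs. Both were treated for 72 h and given 75 µM 4-thiouridine (4sU) for the last 60 min. Single siControl libraries with 0 µM and 200 µM 4sU were used as reference values only. All sample titles also carry the name DMSO. The comparison asked how the amount and the labelling of these mRNAs stood against other genes of equal read count, and whether they changed when CGGBP1 was depleted.

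C2H2 zinc finger proteins carry arrays of short fingers, each folded around a zinc ion, that read DNA sequence, and they form the largest family of human transcription factors. Many members also carry a KRAB domain, which recruits the corepressor TRIM28 and through it SETDB1 and the HP1 proteins to silence chromatin, and many of these genes lie in tandem clusters on chromosome 19. CGGBP1 is a small DNA-binding protein with affinity for CGG repeats. SLAM-Seq tells new from old RNA by iodoacetamide treatment, after which each incorporated 4sU can be read as a T-to-C conversion, so the conversion rate of an mRNA reports how much of it was made during the labelling time.

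In GENCODE 44 (GRCh38), 60 of the 187 genes lie on chromosome 19, 20 on chromosome 16, 14 on chromosome 7 and 12 on chromosome 1. Their canonical coding sequences held a median of 9 C2H2 fingers, from 0 to 36 by the pattern used. A KRAB A-box pattern was found in 69 (36.9%), against 66.8% of the 256 symbols below the limit, and 62.1% of the latter were on chromosome 19. The pattern misses some members, such as ZNF224, a known KRAB protein, so a gene without a match is not shown to lack the domain. Among the clusters of chromosome 19, drawn where neighbouring symbols lay within 500 kb, those at 19668796 to 22091480 (16 symbols) and 22634324 to 24129968 (7 symbols) were the largest without a gene that met the limit. The clusters at 57191500 to 58481230 (11 of 40 symbols), 51571283 to 53580269 (10 of 38) and 43525497 to 44500524 (9 of 22) contributed most.

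CGG tracts near the start site are shown because CGGBP1 is known to bind CGG repeats. Of the 168 genes with an entry in the RefSeq promoter table (GRCh38.p14, 250 bases before to 50 bases after the start), 19 (11.3%) held an uninterrupted run of at least 3 CGG repeats on either strand. The share was 11.5% of all tested genes, 6.21% of the 35116 promoters in that table and 1.90% of the ZNF symbols below the limit. The tract lay before the start in 12 and after it in 7, and 14 of the 19 had 3 repeats. The longest run, 7 repeats, was in ZNF362, and the next longest, 6 repeats, in ZNF853 and ZNF212. Within 500 bp either side of the annotated start, 50 of 187 (26.7%) had a run of at least 3, against 29.6% of all tested genes. The 250 bases before the start of ZNF428, the gene called in total RNA, and of ZNF362 and ZNF853 follow, with runs of at least 3 repeats in capitals. They lie at chr19:43619630-43619879 (minus strand), chr1:33256242-33256491 (plus strand) and chr7:6615360-6615609 (plus strand), outside annotated exons. ZNF428 had no such run in this stretch.
ZNF428: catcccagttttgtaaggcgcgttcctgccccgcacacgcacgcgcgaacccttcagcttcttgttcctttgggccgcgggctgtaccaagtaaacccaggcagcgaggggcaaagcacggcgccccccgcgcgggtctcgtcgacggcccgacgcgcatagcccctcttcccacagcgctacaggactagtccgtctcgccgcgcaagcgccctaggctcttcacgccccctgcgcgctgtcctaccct
ZNF362: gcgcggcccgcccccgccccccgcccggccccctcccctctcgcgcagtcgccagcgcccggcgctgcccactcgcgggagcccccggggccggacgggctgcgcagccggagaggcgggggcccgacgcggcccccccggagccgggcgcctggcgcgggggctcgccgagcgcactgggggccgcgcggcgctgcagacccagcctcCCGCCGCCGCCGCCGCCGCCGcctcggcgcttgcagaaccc
ZNF853: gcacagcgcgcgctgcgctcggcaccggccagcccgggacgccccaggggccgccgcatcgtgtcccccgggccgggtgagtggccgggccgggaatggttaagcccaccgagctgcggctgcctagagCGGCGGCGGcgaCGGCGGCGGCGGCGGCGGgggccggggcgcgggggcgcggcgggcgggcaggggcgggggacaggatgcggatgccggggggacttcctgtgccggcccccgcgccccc

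Of the 19 genes with a run of at least 3 repeats in the promoter window, 3 had an unadjusted p under 0.05 in total RNA. Of the 149 without one, 13 did. Over all tested genes the counts were 157 of 947 with a run and 1167 of 7287 without. The tracts of the 3 genes (ZNF428, ZNF84 and ZNF511) are shown as 30 bases, beside those of ZNF212 and ZNF609, which held 6 and 5 repeats. They lie at chr19:43619580-43619609 (minus strand), chr12:133037518-133037547, chr10:133308849-133308878, chr7:149239666-149239695 and chr15:64460585-64460614 (plus strand). The ZNF428, ZNF84, ZNF212 and ZNF609 tracts overlap an annotated exon of the gene itself, and the ZNF511 tract, before its start, overlaps an exon of the neighbouring gene TUBGCP2. In ZNF428 the repeat reads CCG on the transcribed orientation, which is CGG on the other strand.
ZNF428: ggctgggcgtgcagCCGCCGCCGcagagcc
ZNF84: cgggcgcgactCGGCGGCGGcgtcttttgt
ZNF511: gcagcccccgaCGGCGGCGGaagtgagcgt
ZNF212: tcaacaCGGCGGCGGCGGCGGCGGcttcca
ZNF609: ccggatcgCGGCGGCGGCGGCGGtggcggc

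The 6 main libraries held between 10127519 and 14221516 reads, the 0 µM library 19011714 and the 200 µM library 11341561. CGGBP1 (ENSG00000163320, chromosome 3, 88051944 to 88149885, minus strand) had 1245, 1089 and 891 normalized reads in the siControl libraries and 212, 117 and 362 in the siCGGBP1 libraries. The groups did not overlap, and by edgeR it fell by 2.22 on the log2 scale (adjusted p = 0.0138, standard error 0.39). Of 6 mesenchymal markers listed, the 5 in the table (COL1A1, VIM, SPARC, RUNX2 and CDH2) had over 100 reads in each library, with a sum from 38854 to 51831 in siControl and from 61218 to 104056 in siCGGBP1. Of 6 markers of other cell types, the 3 in the table stayed at or below 184.5 reads (EPCAM), with PTPRC at up to 8 and CD3E at 0. Whether these differences bear on the ZNF genes was not tested. In replicate 3 of both groups the new-to-total ratio of most low genes was estimated as 0, so these libraries stand apart in that measure, and it is given with and without them. The labels do not say whether libraries of a group came from separate cultures, so p-values measure the spread between these libraries, which may be technical. Throughout, values after ± are standard deviations over the 3 libraries of a group, normalized reads are scaled by effective library size, and adjusted p-values are from edgeR's quasi-likelihood test with Benjamini-Hochberg adjustment over the 10138 genes. Calls required both an adjusted p below 0.05 and a change of more than 1 on the log2 scale. In these bulk samples, fewer cells of a type and less RNA per cell cannot be told apart.

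ZNF mRNAs were of low abundance. Their median was 220.1 reads per library, against 467.8 over the tested genes, with a range from 73.7 to 2511, and 18 of 187 had a mean above 1000 reads. Only 97 of 187 reached 100 reads in all 6 libraries, and 5 met the limit through one group alone, 3 through siControl and 2 through siCGGBP1. Just inside the limit, ZNF700 had 100, 68 and 21.5 reads in siControl and 105.5, 44 and 217 in siCGGBP1, and ZNF740 had 57, 101 and 30 against 111, 143 and 0. Just outside, ZNF365 had 98, 128 and 187 reads in siControl and 69, 90 and 91 in siCGGBP1, and ZNF502 had 36, 130 and 47 against 7, 97.5 and 226. The limit therefore separates genes whose reads overlap. Fractional read counts, which can arise where a read fits several genes, occurred in 78.6% of the 187 and in 84.9% of the tested genes.

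The mRNAs with most reads were ZNF106, ZNF207, ZNF428, ZNF281, ZNF706 and ZNF664, and none of these 6 matched the KRAB pattern. ZNF207, which encodes the spindle and kinetochore protein BuGZ, had 2483, 2298 and 3312 normalized reads in siControl and 2458, 1879.6 and 2375 in siCGGBP1. ZNF106, an RNA-binding protein gene, had 2806, 2792 and 1423 normalized reads in siControl and 2819, 2626 and 2635 in siCGGBP1. Both overlapped between the groups, and edgeR gave adjusted p = 0.576 and 0.754 for log2 fold changes of -0.27 and 0.20. ZNF706 had a mean of 1376 ± 126 normalized reads in the siControl and 1624 ± 97.2 in the siCGGBP1 libraries. For ZNF664 the means were 1148 ± 79.9 and 1571 ± 54.5 (edgeR, log2 fold change 0.45, adjusted p = 0.304). The siCGGBP1 libraries were above the siControl libraries in both of these genes, as in 12.1% of tested genes, without passing the test.

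ZNF mRNAs took up more label than other mRNAs of equal read count. Summed over the 187 genes, T-to-C conversions per 100 covered T were 0.563, 0.542 and 0.434 in siControl and 0.611, 0.538 and 0.505 in siCGGBP1, against 0.0731 without 4sU. With both sets weighted to the same read count bins, the siControl rate was 0.525 ± 0.112 for ZNF genes and 0.311 ± 0.065 for other genes. In the siCGGBP1 libraries the ZNF genes ranged from 0.446 to 0.708, and other genes had 0.357 ± 0.0386. The rate over other genes was 1.79, 1.60 and 1.67-fold in the siControl libraries and 1.76, 1.68 and 1.36-fold in the siCGGBP1 libraries. ZNF genes were thus above other genes within each of the 6 libraries, while the weighted rates of siControl and siCGGBP1 overlapped. Without 4sU the ZNF genes were 1.27-fold above other genes. After subtraction of these rates, the fold was 1.79 ± 0.117 for siControl and 1.67 ± 0.252 for siCGGBP1. At the same weights, covered T per read was slightly lower in ZNF genes, at 31.9 against 33.0 for other genes in siControl and 30.6 against 31.6 in siCGGBP1.

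**Figure D1:**
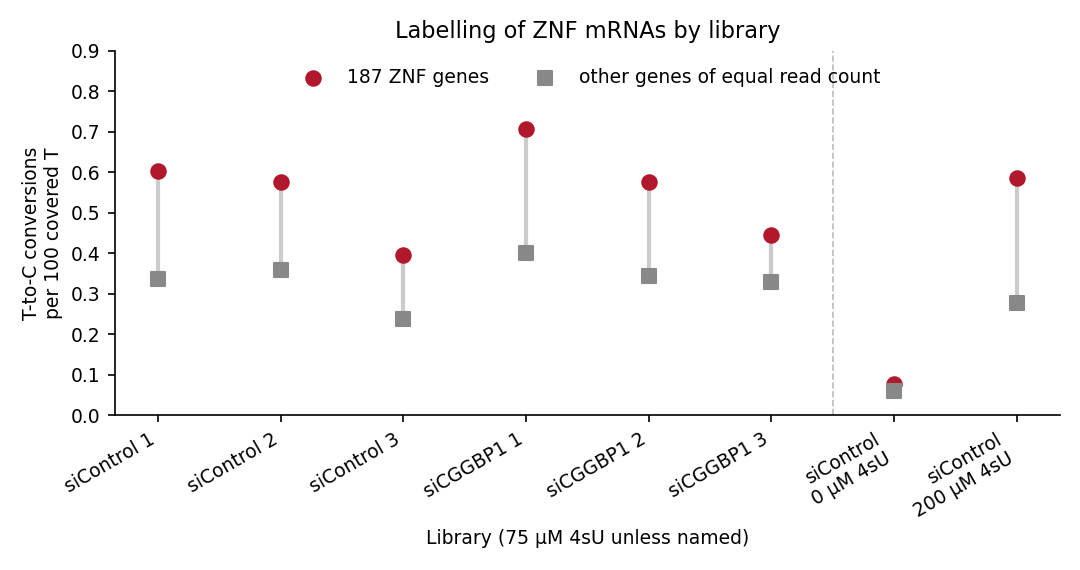
T-to-C conversions per 100 covered T in each of the 8 libraries, for the 187 ZNF genes (circles) and for other tested genes (squares), both weighted to the read count bins of the ZNF genes. The circles lie above the squares in the 6 libraries with 75 µM 4sU and in the 200 µM library, and both are below 0.1 without 4sU.

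On average over libraries, the difference was present at low and high read counts. The mean rate of ZNF genes was above that of other genes in each of the 7 read count bins in both groups. In siControl it was 0.483 ± 0.0634 against 0.323 ± 0.0823 for the 52 genes under 150 reads, and 0.433 ± 0.0523 against 0.254 ± 0.039 for the 21 genes between 800 and 1600 reads. The library ranges of both sets overlapped at 150 to 200 and 300 to 400 reads in siControl and below 200 reads in siCGGBP1. Single libraries reversed the difference. Under 150 reads in siCGGBP1 the lowest ZNF library had 0.252, below the lowest of other genes, 0.377. At 150 to 200 reads in siControl these values were 0.186 and 0.262. In siCGGBP1 the 38 genes between 200 and 300 reads had 0.579 ± 0.0151 against 0.344 ± 0.0399. In siControl, other genes had their highest mean rate, 0.346, at 150 to 200 reads and their lowest, 0.176, above 1600 reads, and the ZNF genes showed no such order.

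**Figure D2:**
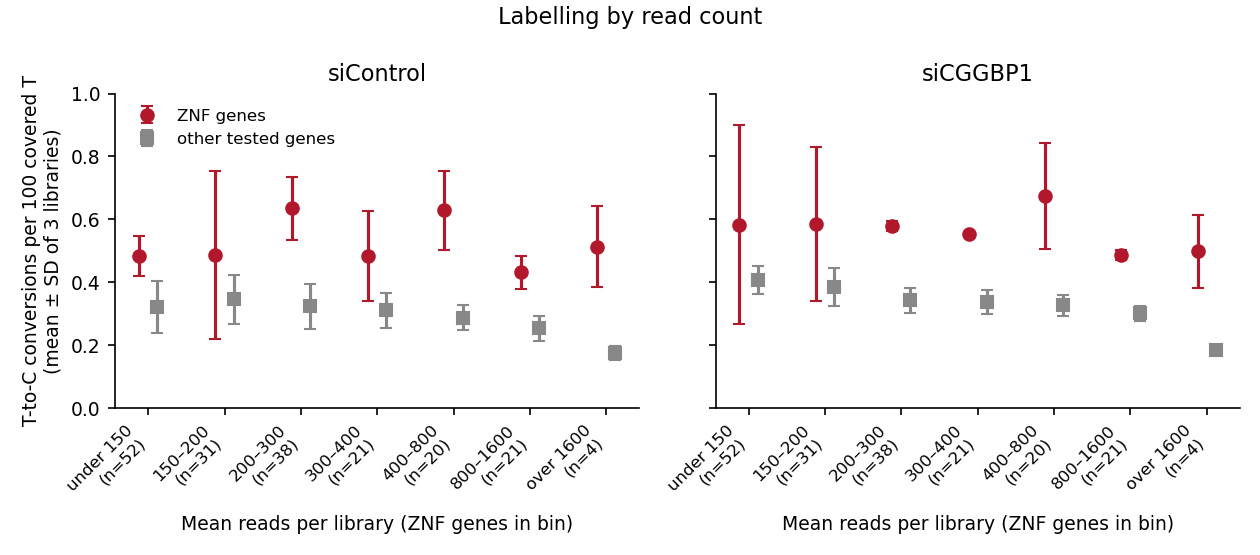
T-to-C conversions per 100 covered T by mean reads per library in siControl and siCGGBP1, for ZNF genes (circles, number per bin under the axis) and other tested genes (squares), as mean ± SD of 3 libraries. The means of ZNF genes lie above those of other genes in each bin, with wide bars below 200 reads.

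Single ZNF genes spread widely around this average. The mean rate over the 6 libraries had quartiles of 0.226, 0.425 and 0.821 and a highest value of 2.60, and 137 of 187 (73.3%) were above the median of other genes in their bin. A rate above 1 was found for 30 of the 187 genes, against 5.33% of other genes of equal read count. Conversions were present in all 6 libraries for 86 of 187, against 39.5% of other genes of equal read count, and the library without 4sU held none for 60 of 187, against 30.4%. The rate was higher in siCGGBP1 than in siControl for 48.7% of ZNF genes and for 51.4% of tested genes. The libraries of the groups did not overlap in conversion rate for 12 of 187 (6.42%, 6 higher and 6 lower), against 8.60% of tested genes.

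The deposited new-to-total ratio depended strongly on the library. With both sets weighted to the same read count bins, the median ratio was 11.6%, 13.1% and 2.48% for ZNF genes in the siControl libraries and 10.5%, 8.77% and 3.99% in the siCGGBP1 libraries, against 3.87%, 4.46% and 0.0778% and 2.33%, 2.20% and 0.0611% for other genes. At these weights ZNF genes were above other genes in all 6 libraries, by 2.41 to 8.59 percentage points. Unweighted, the median over the 187 genes was 11.5%, 13.8% and 0% in siControl and 9.84%, 9.23% and 0% in siCGGBP1. The means of these medians were 8.42 ± 7.38% for siControl and 6.36 ± 5.51% for siCGGBP1, a difference smaller than the spread, and 12.6% and 9.54% without both replicate 3 libraries. The unweighted ZNF median minus the weighted other genes was 7.61, 9.32 and -0.0778 percentage points in siControl. In siCGGBP1 it was 7.51, 7.03 and -0.0612, so by this measure ZNF genes were not above other genes in either replicate 3 library. A ratio above 0 was estimated for 89.8%, 85.6% and 41.2% of the genes in siControl and for 77.0%, 75.4% and 43.3% in siCGGBP1. In 45 genes it was above 0 in all 6 libraries, and in ZNF76 and ZNF749 it was 0 in all 6. Summed new reads of the ZNF genes, at weights of equal read count, were 14.7 ± 2.56% of their reads for siControl and 14.7 ± 1.74% for siCGGBP1, and 7.94 ± 0.747% and 8.20 ± 1.29% in other genes.

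The regulators with described roles differed in their labelling. ZNF281, a GC-box binding factor of pluripotency and epithelial-mesenchymal transition, had rates of 1.13, 0.89 and 1.36 conversions per 100 covered T in siControl and 1.65, 1.98 and 1.07 in siCGGBP1, with 0.008 without 4sU. ZNF24, a SCAN domain repressor, had 1.04, 0.695 and 0.891 against 1.04, 0.984 and 0.658, with 0.17 without 4sU. ZNF148, which also binds GC-rich promoters, had 0.806, 0.588 and 0.452 against 0.891, 0.885 and 0.326. The groups overlapped in each of these, and their lowest labelled library was above the 0 µM library. ZNF217, an oncogene amplified in breast cancer, ranged from 0.389 to 1.64 in siControl and from 0.0131 to 1.86 in siCGGBP1. ZNF207 was less labelled, between 0.124 and 0.43 in the 6 libraries. ZNF143, an activator of small nuclear RNA genes, had 145, 51.7 and 248 normalized reads in siControl and 204, 49.6 and 0 in siCGGBP1, too few to place its rate.

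The 6 genes with the highest mean rates were ZNF551, ZNF213, ZNF367, ZNF611, ZNF646 and ZNF274. ZNF551, a KRAB match on chromosome 19, had 1.17, 1.33 and 2.59 conversions per 100 covered T in siControl and 1.41, 1.31 and 7.78 in siCGGBP1. Its high value in siCGGBP1 replicate 3 came from 12 conversions, in the library where it had fewest reads. ZNF274, which recruits SETDB1 to zinc finger gene clusters, had 0.601, 0.41 and 0 in siControl and 1.2, 0.219 and 7.1 in siCGGBP1. ZNF213 ranged from 0.225 to 5.54, ZNF611 from 0 to 6.96 and ZNF646 from 0.0158 to 3.73, each with at least one replicate 3 library as an extreme. ZNF367 had 0.579, 1.37 and 2.91 in siControl and 1.15, 2.01 and 4.02 in siCGGBP1, but also 0.723 without 4sU, where 110 conversions were counted. Of these 6 genes, ZNF551 was the one with a rate above 1 in all 6 libraries.

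The 4 genes with the lowest rates were ZNF76, ZNF749, ZNF224 and ZNF335. ZNF76, a close relative of ZNF143, had no conversion among 25502 covered T of the 6 libraries, which allows a rate of up to 0.0118 per 100 covered T, from counting error alone, and had 102 to 237 normalized reads. ZNF749 and ZNF335, a component of a histone methyltransferase complex, had 3 conversions each over the 6 libraries, and ZNF224, a KRAB repressor, had 5. All 4 had between 23.8 and 237 normalized reads in each library, so all 4 were of low read count. Without 4sU, 5 genes (ZNF7, ZNF507, ZNF24, ZNF106 and ZNF609) held 35.6% of the conversions of the 187 genes. In 13 genes the rate without 4sU was at or above the mean of the 6 labelled libraries, among them ZNF7 with 1.88 against 0.97 and ZNF304 with 1.04 against 0.784. In ZNF106 the rate without 4sU, 0.19, was within the range of the labelled libraries, 0.14 to 0.306. Leaving the 5 genes with most conversions out lowered the 0 µM rate from 0.0731 to 0.0516 and left the 6 labelled libraries between 0.435 and 0.609.

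Genes with a KRAB match were labelled above those without in the siControl libraries. Relative to other genes of equal read count, the KRAB matches had rates of 1.87 to 2.12-fold in the siControl libraries (mean 1.99 ± 0.123) and 1.30 to 2.08-fold in the siCGGBP1 libraries (mean 1.70 ± 0.392). Genes without a match had 1.45 to 1.61-fold (mean 1.52 ± 0.0799) and 1.41 to 1.66-fold (mean 1.56 ± 0.132). The subsets did not overlap in siControl and overlapped in siCGGBP1, and whether their difference changed between the groups was not tested. Finger number gave no order. Genes with under 5 fingers had 1.72 ± 0.213-fold in siControl against 1.23 ± 0.457-fold in siCGGBP1, those with 5 to 10 had 1.65 ± 0.0883 against 1.79 ± 0.0799, and those with over 10 had 1.76 ± 0.241 against 1.64 ± 0.28. Related zinc finger families were also labelled above other genes on average. The 17 tested KLF and SP genes had 2.54 ± 0.631-fold in siControl and 2.63 ± 0.139-fold in siCGGBP1. The 23 ZBTB genes had 1.57 ± 0.649 and 1.58 ± 0.565-fold, and the 17 ZSCAN, ZKSCAN and ZFP genes 1.80 ± 0.838 and 1.24 ± 0.164-fold. The ZBTB libraries spread from below to above the ZNF values in both groups, and the ZSCAN, ZKSCAN and ZFP genes did so in siControl. The 3′ untranslated regions of the ZNF genes were longer than those of tested genes (median 1785 against 1404 bases), and held 0.283 copies of TATTTAT, the core of AU-rich elements, per kb against 0.318.

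**Figure D3:**
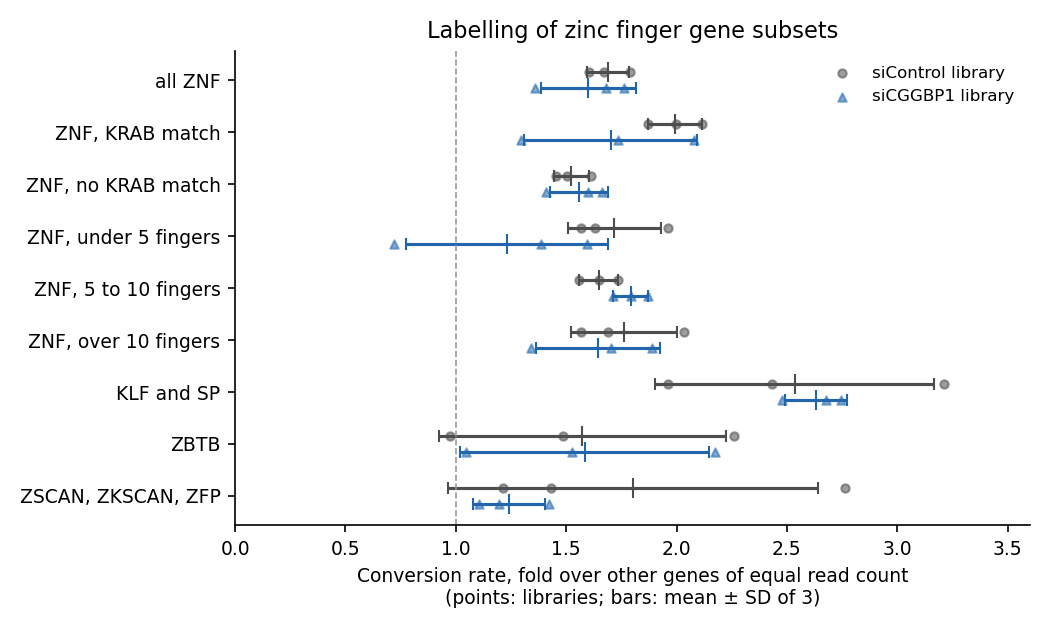
Conversion rate as a fold over other genes of equal read count for ZNF genes, their subsets and related zinc finger families, with one point per library (circles siControl, triangles siCGGBP1) and bars for mean ± SD of 3 libraries. The dashed line marks no difference, and KLF and SP genes lie above the ZNF genes with 2.54 and 2.63-fold.

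In total RNA, 1 of the 187 genes passed the test between siCGGBP1 and siControl. ZNF428 rose in siCGGBP1, which is 0.535% of the ZNF genes against 1.41% of tested genes called in either direction (0.454% higher and 0.957% lower), and 0 ZNF genes were called lower. Among other genes of equal read count, 0.723% were called. The shares of tested genes given below are over all read counts, which were higher than those of the ZNF genes at the median. DESeq2's Wald test also called 1, against 3.66% of tested genes. An unadjusted p under 0.05 was found for 19 ZNF genes (10.2%, 13 higher and 6 lower), against 16.4% of tested genes. The libraries of the groups did not overlap for 32 (17.1%, 19 higher and 13 lower), against 24.2%. The median log2 fold change was 0.04 over the 187 genes, 0.00 over the tested genes and 0.03 over other genes of equal read count, and 96 of 187 (51.3%) were above 0, against 50.1%. The median size of the log2 fold change, in either direction, was 0.35 for ZNF genes and 0.44 for other genes of equal read count. An absolute log2 fold change above 1 was found for 16 (8.56%, from -1.55 in ZNF625 to 1.87 in ZNF813), against 10.2% of tested genes. ZNF625 met the read limit through siControl alone and ZNF813 through siCGGBP1 alone, so the limit favoured the direction of both.

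**Figure D4:**
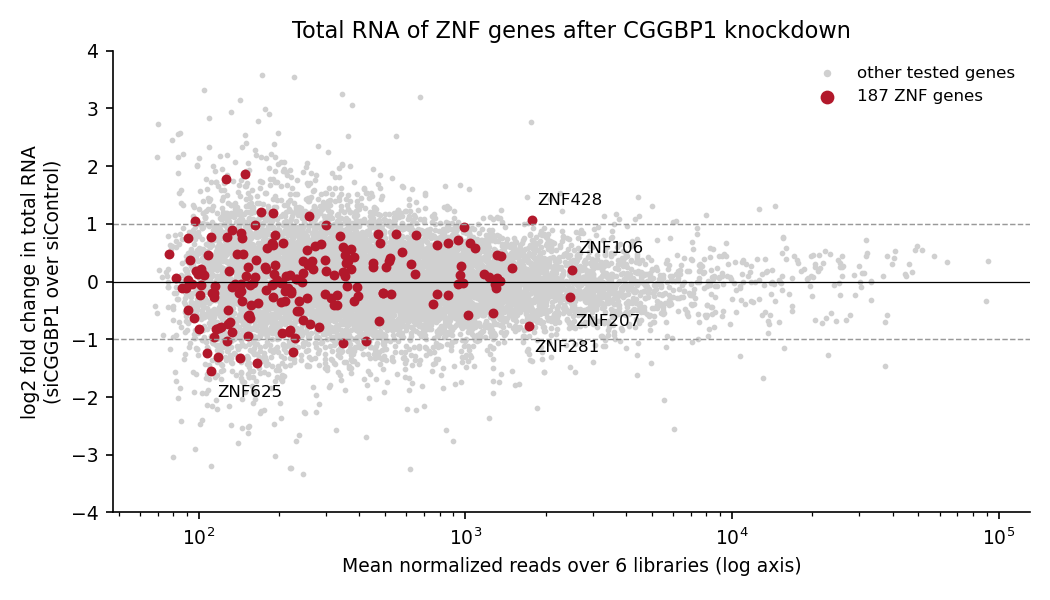
Log2 fold change in total RNA (siCGGBP1 over siControl) against mean normalized reads over the 6 libraries (log axis), for the 187 ZNF genes (dark points) and the other tested genes (light points, 4 of them outside the axis). Dashed lines mark a log2 fold change of -1 and 1, and the ZNF genes lie on both sides of 0, with ZNF428 as the gene called.

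ZNF428 (ENSG00000131116, chromosome 19, 43607224 to 43619629, minus strand), the third most abundant of these mRNAs, had 854, 1482 and 1093 normalized reads in siControl and 2054, 2647 and 2504 in siCGGBP1. The groups did not overlap, and the gene rose 2.10-fold, from 1143 ± 317 to 2402 ± 309 normalized reads. By edgeR this was a log2 fold change of 1.07 with a standard error of 0.24 and adjusted p = 0.0453. The edgeR call was lost on leaving out siControl replicate 1 (adjusted p = 0.160) or 3 (0.141), or siCGGBP1 replicate 1 (0.111), 2 (0.152) or 3 (0.0641), and held without siControl replicate 2. Its labelling was low, with 17, 7 and 2 conversions in the siControl libraries and 35, 26 and 5 in the siCGGBP1 libraries, a rate of 0.0681 ± 0.0848 and 0.0693 ± 0.0648 per 100 covered T. These rates differed by less than their spread.

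The other genes of lowest p that were higher in each of the 9 pairs of libraries were ZNF219, ZNF618, ZNF84, ZNF644 and ZNF496, and none passed the adjusted test. ZNF219, a partner of SOX9 in cartilage, had 446, 719 and 867 normalized reads in siControl and 949.9, 1499.8 and 1446 in siCGGBP1, with log2 fold change 0.94 (edgeR adjusted p = 0.136). ZNF84, a KRAB match with a promoter tract, had 172, 152 and 162 against 294, 299 and 480.0, with log2 fold change 1.15 (edgeR adjusted p = 0.193). The ZNF84 siControl libraries lay close together, and siCGGBP1 replicate 3 was its highest. ZNF644, which works with the histone methyltransferases EHMT1 and EHMT2, had 785, 617 and 712 against 1051, 901 and 1539.5, with log2 fold change 0.73 (edgeR adjusted p = 0.199). ZNF618 had 472 ± 44.5 and 829 ± 123 and ZNF496 had 342 ± 88.2 and 602 ± 49.4 normalized reads.

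Lower in each of the 9 pairs, also without passing the adjusted test, were ZNF281, ZNF830, ZNF511, ZNF283, ZNF850 and ZNF625. ZNF625 met the read limit through siControl alone, the group where it was higher. ZNF281 had 1441, 2227 and 2868 normalized reads in siControl and 1281, 1219 and 1341 in siCGGBP1, with log2 fold change -0.77 (edgeR adjusted p = 0.148). Its siControl libraries spread widely and the lowest of them was near the siCGGBP1 libraries, which lay close together. ZNF830, a spliceosome-associated protein gene, had 527, 397 and 792 against 221, 337 and 278, with log2 fold change -1.04 (edgeR adjusted p = 0.171). ZNF511 had 1081, 1004 and 1588 against 891, 871 and 685, with log2 fold change -0.59 (edgeR adjusted p = 0.286). Both were separated by narrow gaps. The KRAB matches ZNF283, ZNF850 and ZNF625 had means of 204 ± 17.9, 239.5 ± 73.7 and 166 ± 59.1 normalized reads for siControl and 81.0 ± 25.4, 90.1 ± 51.7 and 56.7 ± 39.0 in siCGGBP1.

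**Figure D5:**
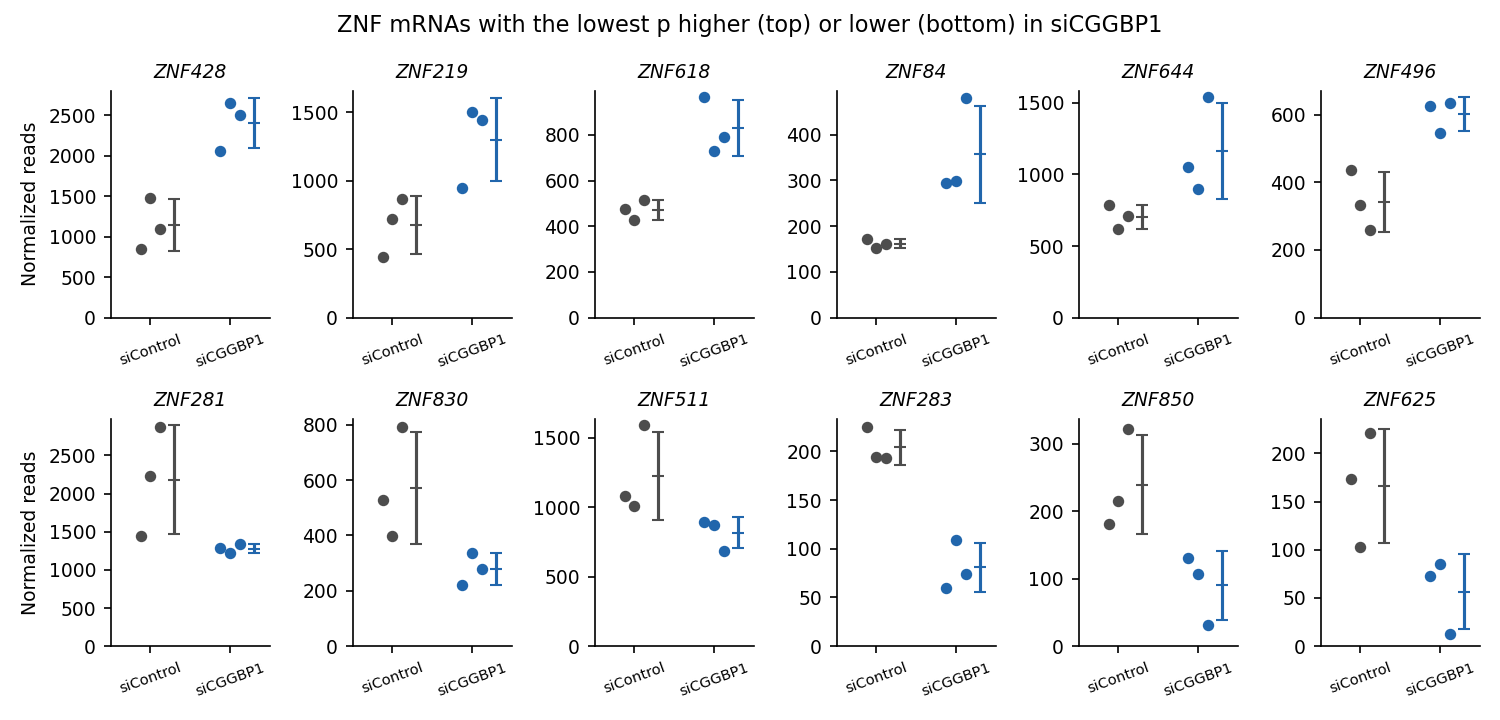
Normalized reads in each siControl and siCGGBP1 library (points) with mean ± SD of 3 for the 6 ZNF genes of lowest p among those higher (top) and lower (bottom) in siCGGBP1 in all 9 pairs of libraries, each axis starting at 0. The groups do not overlap in these genes, which were chosen for it, and only ZNF428 passed the adjusted test.

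The median log2 fold change in total RNA was -0.01 with a KRAB match (34 of 69 above 0) and 0.05 without one (62 of 118), and 0.06 on chromosome 19 against 0.03 elsewhere. In the chromosome 19 cluster that holds ZNF428, 43525497 to 44500524, 6 of 9 genes were below 0, with a median of -0.58 and a range from -1.33 in ZNF283 to 1.07 in ZNF428, while the larger clusters had medians of 0.04 and 0.04. Of the clusters with at least 5 of the ZNF genes, the others had medians of 0.23 (8509678 to 9793180, 6 genes), -0.23 (36182276 to 37817300, 5 genes) and -0.06 (55476617 to 56671783, 6 genes). For the 19 genes with a promoter CGG tract the median was 0.25, with 11 above 0 and 1 called, and the 149 without had -0.01, with 74 above 0 and 0 called. Over the tested genes the medians were 0.07 with a tract and -0.01 without, and 9 of 947 with a tract and 93 of 7287 without were called.

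The 187 genes took 0.579%, 0.595% and 0.586% of the reads in siControl and 0.631%, 0.606% and 0.654% in siCGGBP1. The groups did not overlap, with means of 0.586 ± 0.00791% and 0.630 ± 0.0243%, but the siControl library with 0 µM 4sU had 0.639%, inside the siCGGBP1 range. Without ZNF428 the shares were 0.572 to 0.582% and 0.583 to 0.633%. ZNF428 and ZNF219 added most to the difference and ZNF281 lowered it most.

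Newly synthesized RNA, the read count multiplied by the ratio, gave 0 called ZNF genes, against 0.0493% of tested genes (0.0296% higher and 0.0197% lower), with an unadjusted p under 0.05 in 2 of 187 (ZNF114 and ZNF646, both lower in siCGGBP1), against 3.15%. Conversion counts in place of new reads also gave 0, against 0.178% of tested genes, with 7 at an unadjusted p under 0.05 (3.74%, against 5.72%). DESeq2 on new reads called 0 ZNF genes, against 27 of the 10138 tested. In counts simulated for the 10138 genes of this comparison with a log2 fold change of 2 in 200 of them, edgeR recovered 0. The 200 were drawn at random from genes with new reads, and conversion counts were not simulated. The test of new reads thus had little power at that size for such genes, although it called 5 of the 10138 tested. Its 0 calls among ZNF genes do not show that these were unchanged. ZNF629 had 26, 55 and 17 new reads in the siControl libraries and 152, 65 and 425 in the siCGGBP1 libraries, and ZNF408, a retinal disease gene, had 34, 33 and 0 against 138, 113 and 109. ZNF232 had 0, 2 and 0 against 12, 11 and 44, with its siControl libraries at or below 3 reads. These 3 were higher in each of the 9 pairs, for which they were chosen, and the share of tested genes that were so in new reads was not counted. None of them had an unadjusted p under 0.05, and the lowest of the 3 edgeR values was adjusted p = 0.994. In the other direction, ZNF646 had 34, 64 and 531 new reads against 29, 32 and 0, ZNF358 had 5, 22 and 2 against 0, 0 and 0, and ZNF850 had 56, 77 and 164 against 4, 43 and 0. The siControl maximum of ZNF646 came from replicate 3, where its ratio was 100%. A value of 0 new reads arises where the ratio was 0 or missing, as for most genes in the replicate 3 libraries. In siCGGBP1 replicate 3, ZNF646 had 329 reads in total RNA and 0 new reads.

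The corepressor pathway that KRAB proteins use showed 0 called genes among 24 tested of 25 listed, against 1.41% of all tested genes, with 12 above and 12 below 0 and a median log2 fold change of 0.04. Among these, DNMT1, the maintenance DNA methyltransferase, had 4779, 4386 and 5406 normalized reads in siControl and 2767, 2623 and 1940.6 in siCGGBP1, with log2 fold change -0.99 (edgeR adjusted p = 0.0252), just short of the fold limit. The HP1 genes CBX1 and CBX3 had log2 fold changes of -0.93 and -0.53 (edgeR adjusted p = 0.0759 and 0.113). The 3 were lower in each of the 9 pairs, as were 12.1% of tested genes, and were named after their values were seen. The CCR4-NOT deadenylation genes, which shorten poly(A) tails, had 0 called of 15 tested, against the same share, with a median of -0.11 and 7 above 0. An unadjusted p under 0.05 was found for 4 of these 15, against 16.4% of tested genes. The genes that follow were named after their values were seen. TOB2, BTG2 and CNOT6 were higher in each of the 9 pairs, as were 12.1% of tested genes, with log2 fold changes of 1.09, 1.06 and 0.95. CNOT7 and CNOT1 were lower in each, as were 12.1% of tested genes, with -0.64 and -0.24. None of these passed the adjusted test.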

How the data were processed

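SLAM-Seq 3′ end libraries of U-2OS Tet-ON cells were analysed from a single table of genes. The authors removed rRNA reads with Bowtie2 2.3.0, mapped the rest to GRCh38 with STAR 2.5.3a and quantified conversions with GRAND-SLAM. The deposited estimated counts per gene (reads, T-to-C conversions, covered T) are not normalized and can be fractional. The new-to-total ratio was deposited by the authors as a fraction per gene and library, and its maximum a posteriori value was used here. Of the columns that hold values of samples, 0 could not be assigned. The ERCC spike-in was not used.

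Read counts were rounded and tested with edgeR 4.0.16 in R 4.3.3 (TMM, quasi-likelihood test, siControl against siCGGBP1, no covariate), with Benjamini-Hochberg adjustment over 10138 genes. DESeq2 1.42.0 was the alternative. Newly synthesized RNA was the read count times the ratio, rounded and scaled by the normalization of the total reads. Conversion rates were conversions per 100 covered T. Other genes were weighted to the read count bins of the ZNF genes, with edges at 150, 200, 300, 400, 800 and 1600 mean reads. Fingers and KRAB matches were found by pattern in coding sequences translated from GENCODE 44 canonical transcripts, in place of the RefSeq proteins planned. CGG tracts were searched in the RefSeq promoter table of GRCh38.p14.

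The members and gene lists were chosen with earlier results of these data known. Genes were named by rule: those called, the 6 of lowest p in each direction that kept one direction over all 9 library pairs, the 6 with most reads, the 6 highest and 4 lowest conversion rates, the 3 of lowest p in each direction in new RNA, the 2 nearest to the limit on each side, and genes with well described roles. Tested on simulated counts for the 10138 genes, with 200 changed by a log2 fold change of 2, edgeR recovered 72% in total RNA with 11 false calls and 0 in new RNA. Alternatives were another normalization, tool and read filter, each library left out, a replicate block, and other measures of the ratio. Depth was 10127519 to 14221516 reads per library, and floors cover counting error only.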

Additional observations from a re-analysis of the deposited data

Results flagged for a closer look

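The siControl library with 200 µM 4sU entered no comparison. The 187 ZNF genes had 0.498 T-to-C conversions per 100 covered T there, above the 0.0731 of the siControl library without 4sU, and with read counts weighted alike they were 2.11-fold above other genes. The result was singled out because it lies in a single library outside the main measurement and above its control, and it has no replicate.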

How the results depend on the processing

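The number of ZNF genes called in total RNA was 0 with a filter of at least 10 mean reads (123 over all genes) and 2 with no filter (327 over all genes), the second being ZNF624 (27, 12 and 336 reads in siControl and 2, 0 and 0 in siCGGBP1), named after its values were seen. It was 0 to 1 with one library left out (48 to 148 over all genes), and in newly synthesized RNA it was 0 in all 15 alternatives. ZNF428 kept its direction in all 11 alternatives, with log2 fold changes from 0.90 to 1.29 and adjusted p from 0.0013 to 0.160, and kept its call in 5. ZNF281 had adjusted p = 0.0484 by DESeq2 and 0.0499 by edgeR with no filter, with log2 fold changes of -0.78 and -0.79. ZNF219 had adjusted p = 0.0489 by edgeR with no filter, with log2 fold change 0.92. These stayed below the fold limit and were not called. The median log2 fold change reversed to -0.0063 at a mean of at least 10 reads and to -0.0048 with the replicate block, and was 0.10 for genes with at least 200 reads. The share higher in siCGGBP1 was 49.7% with the replicate block, 56.7% at 200 reads, and 50.8 to 55.1% with one library left out. As conversions per 100 covered T, another unit, the ratio was 0.513 in siControl and 0.551 in siCGGBP1, and the difference from other genes 0.217. As summed new reads the siCGGBP1 ratio was 13.5%. Left out after the data were seen, both replicate 3 libraries gave 12.6%, 9.54% and a difference of 7.87 percentage points between the unweighted ZNF median and the weighted other genes. The KRAB difference in median log2 fold change, -0.07, became 0.034 for chromosome 19 against the rest and ranged from -0.163 to 0.067 with one library left out, reversing without siCGGBP1 replicate 2 (0.067), siControl replicate 2 (0.040) or siControl replicate 3 (0.044). The promoter share of 11.3% was 45.2% for at least 2 repeats and 26.7% within 500 bp of the start. The cause of these changes was not tested. Libraries of one number shared deviations with correlations of 0.109, 0.182 and 0.0885, each the best for its library, which is a hint from the data and not the design, and the replicate block called 1 ZNF gene (161 over all genes).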
